A study of Drosophila melanogaster with 5 samples.

Results

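The peaks described here lie at the loci of 2 ecdysone early genes, Eip74EF and Eip75B, in Drosophila eye imaginal discs, and were called for RNA polymerase II (Pol II), the coactivator Yorkie (Yki) and its DNA-binding partner Scalloped (Sd). A peak was a member when it shared at least 1 bp with a 100 kb window over Eip74EF or a 150 kb window over Eip75B, both on chromosome arm 3L of genome build dm3. The outermost peaks inside ran from 17543679 to 17638356 at Eip74EF and from 17954557 to 18076836 at Eip75B. The rule found 86 of the 24341 peaks in the 3 lists: 46 Yki, 18 Sd and 22 Pol II peaks. They were chosen by the positions of the peaks, and the loci were picked with results of these lists known, so densities and shares are descriptions and were not tested. The window names rest on the rule. Gene names come from a RefSeq table of Release 6, not of dm3, so no peak was tied to a promoter, exon or intron. In that table CycT precedes Eip74EF and Vps60 and anchor follow it, while Eip75B follows lncRNA:CR43174 and lncRNA:CR45393, precedes CG44006 and has 4 genes nested in it. Peaks near a window's edges may belong to neighbouring genes.

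Chromatin immunoprecipitation and sequencing (ChIP-seq) was done on eye discs of 3rd instar larvae, with 1 library for each antibody. The Yki and Sd libraries came from discs of the genotype GMR-Gal4; UAS-Drosophila Yki S168A, and the Pol II library from GMR-Gal4; UAS-Drosophila Yki-V5. Input DNA of each genotype, 2 samples in all, was not analysed here. All discs thus overexpressed a form of Yki through GMR-Gal4, a driver of the differentiating posterior eye disc, and the labels give ectopic cell proliferation for all. No group had Yki at its normal level. Antibody and genotype cannot be told apart in any comparison with Pol II. Each immunoprecipitation used pooled chromatin of about 300 discs, so values are averages over whole discs, and with no replicate library there is no spread between samples.

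Ecdysone is the steroid hormone that times insect moulting and metamorphosis. Bound by its receptor EcR and the partner Usp, it switches on a small set of early genes, which encode transcription factors that pass the signal on to many later genes. Eip74EF encodes ETS-family DNA-binding proteins. Eip75B encodes haem-binding nuclear receptors related to vertebrate Rev-Erb, which can block the nuclear receptor Hr3. Yki is the coactivator that the Hippo pathway restrains to limit organ growth, and it reaches DNA through partners such as Sd, a TEAD-family protein. Pol II peaks mark transcribed or paused genes.

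Yki and Sd peaks were more numerous per Mb at both loci than on the rest of 3L, while the number of Pol II peaks per Mb was nearer to that of the arm, with wide intervals. The Eip75B window held 29 Yki peaks, 193 per Mb (exact Poisson 95% interval 129 to 278), against 98.1 per Mb on the rest of 3L, a ratio of 1.97. The Eip74EF window held 17 Yki peaks, 170.0 per Mb (99.0 to 272), a ratio of 1.73 with an interval of 1.01 to 2.77. These intervals treat peaks as independent and cover counting error only. The rest of 3L includes an end of the arm with few peaks, which lowers its densities. A lower limit as near 1 as 1.01 may depend on it. Sd stood further from the arm: 12 peaks at Eip75B, or 80.0 per Mb (41.3 to 139.7), and 6 at Eip74EF, or 60.0 per Mb (22.0 to 131), against 21.7 per Mb on the rest of 3L. The Sd ratios were 3.69 (1.90 to 6.44) at Eip75B and 2.76 (1.01 to 6.02) at Eip74EF. The lower limit for Sd at Eip74EF is as near 1 as that for Yki, so the same caution holds. Pol II had 13 peaks at Eip75B and 9 at Eip74EF, or 86.7 and 90.0 per Mb, against 75.7 on the rest of 3L. Its ratio at Eip74EF was 1.19 (0.54 to 2.26) with the window as given and 0.66, from 4 peaks, with 10 kb taken off each end. It was 1.42, from 15 peaks, with 20 kb added to each end, and 1.51 with only the upper 50% of each list by score. At Eip75B it was 1.14 (0.61 to 1.96). By length, Pol II peaks covered 11.4% of the Eip74EF window and Yki peaks 11%, against 4.68% and 4.83% of the rest of 3L. Most of the 11436 bp under Pol II came from peaks of 1543, 1558 and 4216 bp in the last 10 kb of the window. Peaks there may belong to neighbouring genes. At Eip75B Pol II peaks covered 3.32%.

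Windows of the same length along the rest of 3L give the background. They include the end of the arm, where peaks were sparse: the last 100 kb window held 0 Yki, 0 Sd and 0 Pol II peaks. Such windows lower the shares given here, and shares without them were not computed. Of 159 windows of 150 kb, 3.14% held at least as many Yki peaks as Eip75B, 2.52% as many Sd peaks and 42.8% as many Pol II peaks. The median window held 16 Yki, 2 Sd and 10 Pol II peaks. Of 241 windows of 100 kb, 17.0% held at least as many Yki peaks as Eip74EF, 5.81% as many Sd peaks and 39.8% as many Pol II peaks, with medians of 9, 2 and 6. Eip75B was thus near the top of the arm in Yki and Sd, and Eip74EF was high in Sd but within the common range in Yki. The Eip74EF value rests on 6 Sd peaks, 4 of them in the lowest 12.1% of the Sd list. With Sd scores of at least 3, its ratio to the rest of 3L had an interval of 0.787 to 5.66. The 290 kb stretch between the windows was sparser than the arm, with 17 Yki, 4 Sd and 16 Pol II peaks, or 58.6, 13.8 and 55.2 per Mb.

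**Figure D1:**
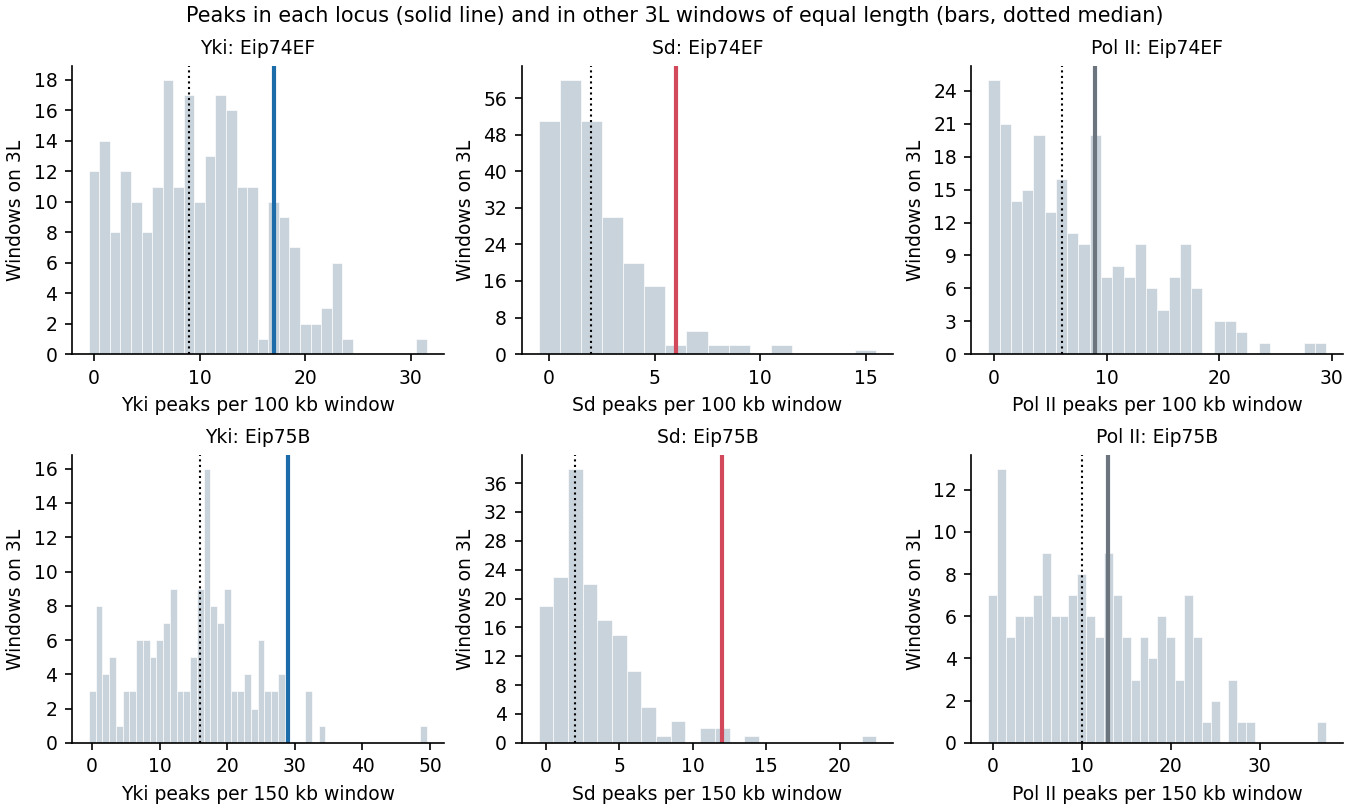
Number of Yki, Sd and Pol II peaks (x axes) in each locus, drawn as a solid line, and in all other windows of the same length on 3L, drawn as bars (y axes, number of windows) with a dotted median. The lines for Yki (29) and Sd (12) at Eip75B lie far right in their distributions, and both Pol II lines (9 and 13) lie within the bulk.

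At Eip74EF all 6 Sd peaks fell on Yki peaks, and the strongest of them lay in the highest-scoring Yki peak of the locus. That Yki peak, 583 bp from 17589909 to 17590491, had a score of 127 and ranked 2 among the 11679 Yki peaks. The score is the authors' own value per peak, with no unit named, and ranks peaks within 1 list only. The Sd peak inside it, from 17589950 to 17590422, was 473 bp wide and tied for rank 1 in its list with a score of 16.3, a value 25 Sd peaks share. The centres lay 14.0 bp apart, and no Pol II peak overlapped the pair. The nearest Pol II peak was 19.9 kb away, edge to edge.

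The Yki peak next in score at Eip74EF was where all 3 proteins met. It ran from 17569565 to 17570281 with a score of 75.1 (rank 249). The Sd peak inside it, from 17569715 to 17570216, had a score of 8.22 and was the widest of the 6 at 502 bp. Both overlapped a 996 bp Pol II peak from 17568994 to 17569989 with a score of 108. It was the only Yki peak at Eip74EF with both Sd and Pol II, and a second, weak Yki peak from 17569239 to 17569477 (score 11.9) lay under the same Pol II peak.

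The other 4 Sd peaks at Eip74EF were weak, although 1 lay on a strong Yki peak. Their scores were 3.85 (from 17563123 to 17563327), 2.09 (from 17571189 to 17571401), 3.57 (from 17583925 to 17584345) and 3.09 (from 17599961 to 17600167), all in the lowest 12.1% of the Sd list. The Yki peaks around them scored 31.4, 24.7, 47.2 and 18.9 in the same order. The lowest of these Sd peaks lay in the widest Yki peak of either locus, 1560 bp from 17570444 to 17572003.

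Yki peaks without Sd at Eip74EF numbered 11. The highest was the first Yki peak of the window, from 17550668 to 17551184 with a score of 42.7, and overlapped a Pol II peak from 17550303 to 17551008 that scored 67.5. Next came a peak from 17572395 to 17572751 with a score of 29.9 and neither partner, and one from 17637883 to 17638356 with a score of 25.3, on Pol II. The other 8 scored between 11.4 and 22.4.

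Pol II at Eip74EF formed a few strong peaks with a long interval between them. Its widest, 4216 bp from 17634092 to 17638307, had the highest score of the locus, 116, and lay 1.69 kb inside the window's end, with 2 Yki peaks and no Sd. After the 108 peak came peaks from 17612185 to 17612649 (score 99.2) and from 17614265 to 17615178 (85.8), each with 1 Yki peak and no Sd, and then the 67.5 peak already named. The 4 Pol II peaks without Yki all lay in the outer parts of the window, with scores from 8.10 to 37.6. With 10 kb off each window end, all 4 remaining Pol II peaks overlapped Yki, against 5 of 9 in the full window.

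**Figure D2:**
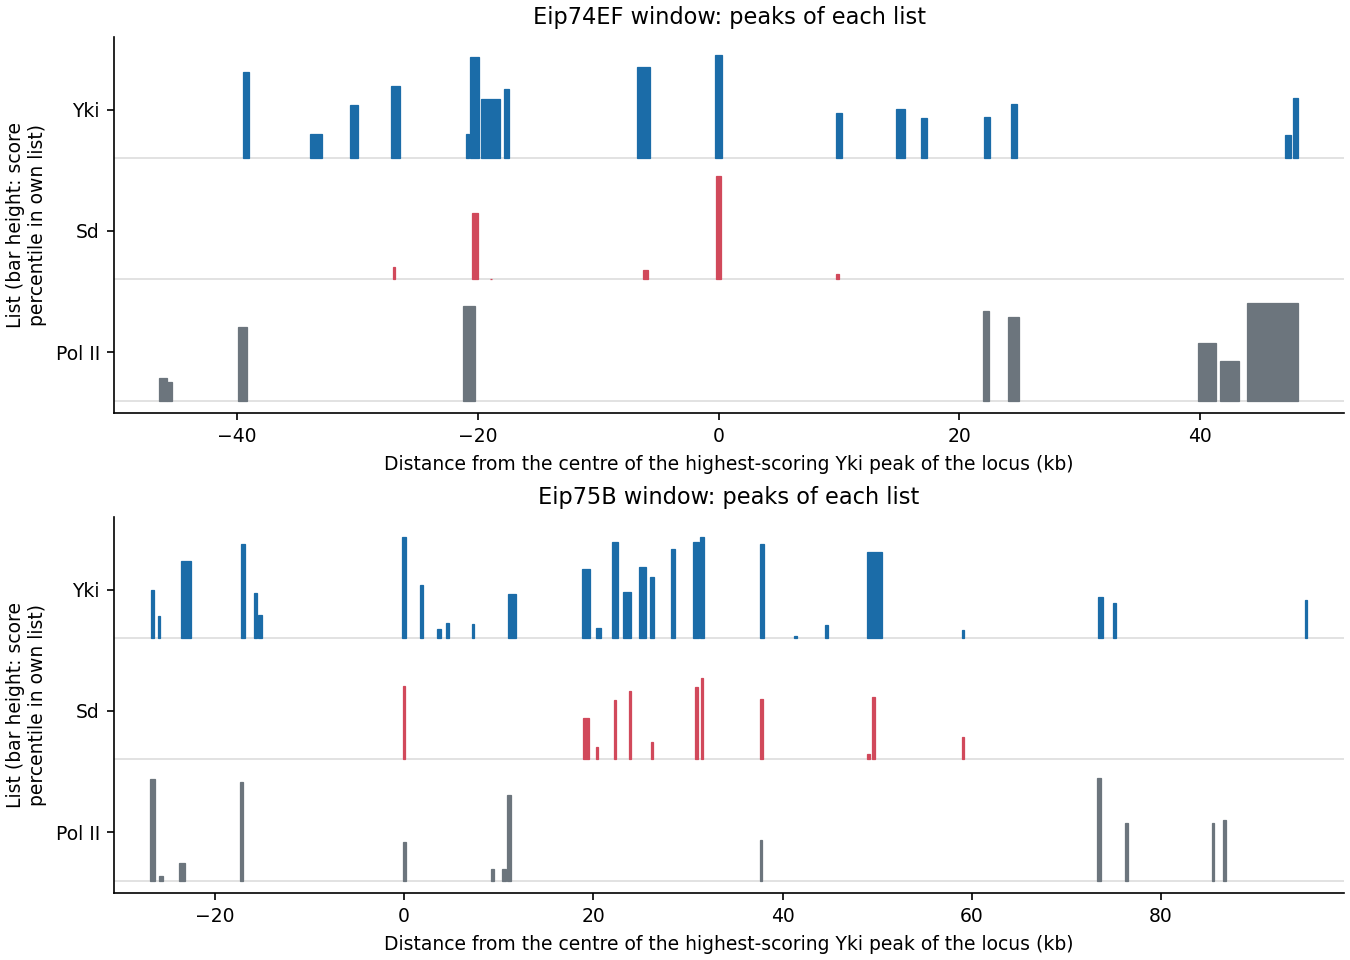
Every Yki, Sd and Pol II peak at Eip74EF (upper panel) and Eip75B (lower panel), by distance in kb from the centre of the highest-scoring Yki peak of the locus. Bar width is peak width and bar height is the percentile of the score within its own list; Sd bars at Eip75B crowd between 19.3 and 31.5 kb, where no Pol II bar stands.

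Eip75B had no site as extreme as that of Eip74EF, but its median Sd score was higher. It held more Sd peaks in a longer window, and the Sd density intervals of the loci overlap widely. All 12 Sd peaks fell on Yki peaks, 11 in number. Sd scores ran from 3.15 to 9.69 with a median of 7.50. The median percentile in the Sd list was 57.9. At Eip74EF the median of 6 Sd scores was 3.71 and the median percentile 10.4. The peaks with scores of 3.15, 3.84, 4.24 and 4.62 were weak, in the lowest 21.7% of the list. None was in the highest 10% of its list, against 8.73% of Sd peaks on the rest of 3L. A count of 0 in 12 allows a share of up to 26.5% (exact interval), so this was not distinguishable from the arm.

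The highest Yki peak at Eip75B was a site of all 3 proteins. It ran from 17981231 to 17981602 with a score of 79.3 (rank 194), with an Sd peak from 17981301 to 17981530 (score 8.77) centred 1.00 bp away. The Pol II peak there, from 17981310 to 17981599, was weak, with a score of 17.7. The only other such site was from 18019059 to 18019408, with a Yki score of 51.9, an Sd score of 7.51 (18019083 to 18019361) and a Pol II score of 19.0. At both sites Yki was in the highest 10% of its list, Sd above the median of its list and Pol II below the median of its own.

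Between these sites lay the densest group of shared peaks. In 12.8 kb, from 18000266 to 18013073, there were 9 Yki peaks and 7 Sd peaks with no Pol II peak. Of the 9 Yki peaks, 7 carried Sd. This group was picked out after its values were seen. Of the 2383 Yki peaks on the rest of 3L, 0.504% began a 15 kb stretch with at least 9 Yki peaks, and 0.168% began one with at least 7 Sd peaks. The densest 15 kb at Eip74EF held 6 Yki and 3 Sd peaks, and 10.7% and 4.49% of Yki peaks on the rest of 3L began stretches as rich in Yki and in Sd. These shares set the densest stretch of a locus against every single start on the arm. Low shares are therefore no measure of how rare such a locus is.

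Within the group, the scores rose and fell from peak to peak. The first Yki peak, from 18000266 to 18001076, scored 29.9 and held the widest Sd peak of either locus, 601 bp from 18000369 to 18000969 with a score of 6.05. The next, from 18001753 to 18002243, scored only 8.07, with an Sd peak of 3.84 (18001693 to 18001897) that reached past its edge. A strong Yki peak followed, from 18003438 to 18003998 with a score of 56.9 and an Sd peak of 7.49 (18003567 to 18003867) centred 1.00 bp from it.

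Further along, the Sd peak from 18005153 to 18005355 scored 8.29 in a Yki peak of only 19.4, and the one from 18007539 to 18007745 scored 4.24 in a Yki peak of 25.7. The group ended in 2 neighbouring Yki peaks 92 bp apart, from 18011916 to 18012622 and from 18012715 to 18013073. They scored 57.6 and 76.8, and their Sd peaks 8.72 (18012218 to 18012498) and 9.69 (18012769 to 18013036), the highest of the locus. The 2 Yki peaks of the group without Sd, from 18006214 to 18006962 and from 18009661 to 18010069, were not weak, with scores of 31.0 and 45.8.

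Past the second site of all 3 proteins the Sd peaks thinned out. A 1552 bp Yki peak from 18030353 to 18031904 (score 42.7) was the only Yki peak of the loci with 2 Sd peaks, from 18030357 to 18030639 (score 3.15) and from 18030900 to 18031237 (7.81). The last shared site, from 18040352 to 18040559, was the narrowest Yki peak of the loci at 208 bp and had a score of 7.24. Its Sd peak, from 18040361 to 18040563, scored 4.62, so here a weak Yki call carried an Sd peak of similar width.

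The strongest Pol II peaks at Eip75B lacked Sd. The highest, from 18054646 to 18055061, scored 135 (rank 81 of 10105), then came 129 from 17954557 to 17955070, 119.9 from 17964050 to 17964452 and 89.6 from 17992313 to 17992764. Each overlapped 1 Yki peak, with Yki scores of 17.5, 20.2, 53.0 and 18.6 in that order, and no Sd peak. The fifth, from 18067996 to 18068271 (score 43.0), overlapped neither. Over both loci, all 5 Pol II peaks in the highest 10% of their list had a Yki peak and 1 had an Sd peak. On the rest of 3L, 96.5% and 19.3% of 202 such peaks did, so these few peaks did not stand apart from the arm.

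Among the 8 highest Yki peaks of Eip75B, the 79.3, 76.8, 57.6, 56.9 and 51.9 peaks had Sd, as did the 42.7 peak, ranked 8. The 53.0 peak from 17964166 to 17964568 had Pol II only, and the 45.8 peak neither. The remaining 21 Yki peaks scored between 4.80 and 34.3.

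Sorting Yki peaks by partner showed more sites shared with Sd and away from Pol II than on the arm. Over both loci 17 of 46 Yki peaks had an Sd peak, or 37.0% (exact 95% interval 23.2 to 52.5), against 20.4% of 2383 on the rest of 3L. At Eip74EF the share was 35.3% (14.2 to 61.7) and at Eip75B 37.9% (20.7 to 57.7), and these intervals overlap widely. When only the 50% of peaks with the higher scores were kept in each list, 2 of 10 Yki peaks at Eip74EF and 46.2% of 13 at Eip75B had Sd, against 19.2% on the rest of 3L. Sites with Sd and without Pol II then made up 10.0% of the Yki peaks at Eip74EF. Sites with Sd and without Pol II made up 30.4% of Yki peaks at the loci (17.7 to 45.8), against 12.3% on the rest of 3L. Yki peaks with Pol II only made up 26.1% (14.3 to 41.1), against 42.6%. Yki peaks with neither were 37.0% at the loci and 37.1% on the rest of 3L, and those with all 3 proteins 6.52% (1.37 to 17.9) and 8.14%. In all, 15 of 46 Yki peaks overlapped Pol II, 32.6% (19.5 to 48.0), against 50.7%.

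**Figure D3:**
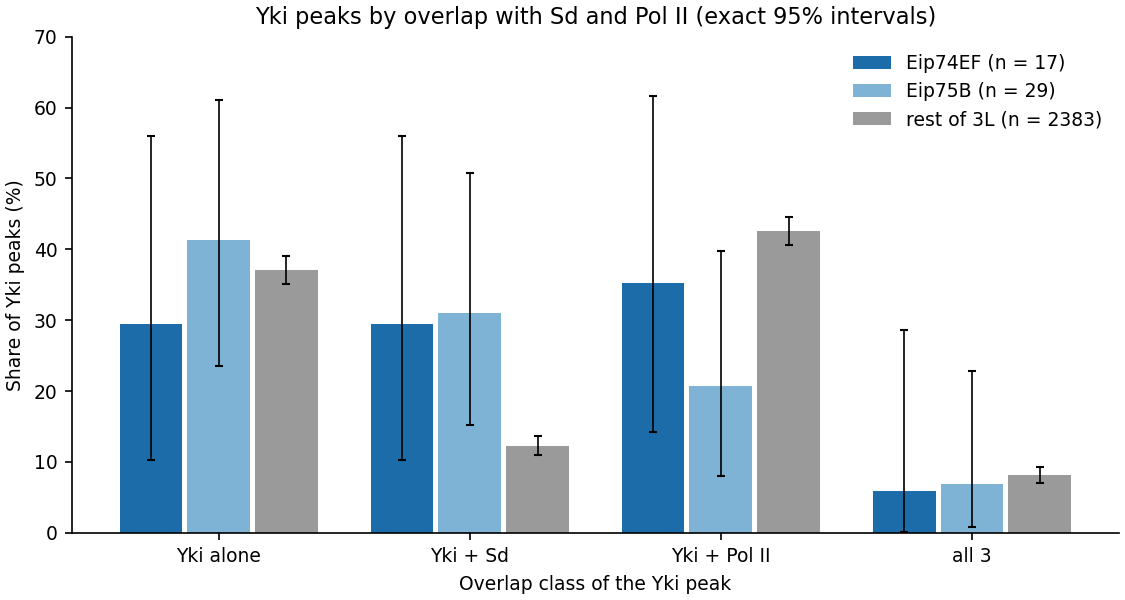
Share of Yki peaks (y axis, %) in each overlap class (x axis) at Eip74EF, at Eip75B and on the rest of 3L, with exact 95% intervals that cover counting error only. The Yki + Sd bars of the loci (29.4 and 31.0%) stand above that of the arm (12.3%), and their wide intervals come from 17 and 29 peaks.

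The higher Sd share was seen in strong and in weaker Yki peaks. Of the 8 Yki peaks at the loci in the highest 10% of their list, 7 had Sd, or 87.5% (47.3 to 99.7), against 69.5% of 220 such peaks on the rest of 3L. Of the 38 below it, 10 had Sd, or 26.3% (13.4 to 43.1), against 15.4% of 2163. The values on the rest of 3L lie within these intervals. The loci did not hold stronger Yki peaks on the whole: the median score was 21.3 at the loci and 21.3 on the rest of 3L, and 17.4% of peaks at the loci (7.82 to 31.4) were in the highest 10% of the list, against 9.23%.

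By partner, Yki scores at the loci followed the arm. The median Yki score was 42.7 for the 17 peaks with Sd and 17.5 for the 29 without it, against 39.7 and 18.6 on the rest of 3L. Median width was 583 bp with Sd and 411 bp without, against 566 and 371 bp. Across the 18 pairs of overlapping Yki and Sd peaks at the loci, Spearman's rho of the scores was 0.69 and Pearson's r 0.83, against 0.35 and 0.40 over 514 pairs on the rest of 3L. Pearson's r was 0.98 for the 6 pairs at Eip74EF and 0.70 for the 12 at Eip75B. The pairs at Eip74EF include the extreme one with scores of 127 and 16.3, and r without it was not computed. Pairs share their libraries and neighbours share a locus, and 1 Yki peak enters 2 pairs at Eip75B, so these are descriptions. In 16 of 18 pairs, or 88.9%, the Yki peak contained all of the Sd peak, against 92.0% on the rest of 3L, with centres a median of 51.2 bp apart, against 52.2 bp.

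**Figure D4:**
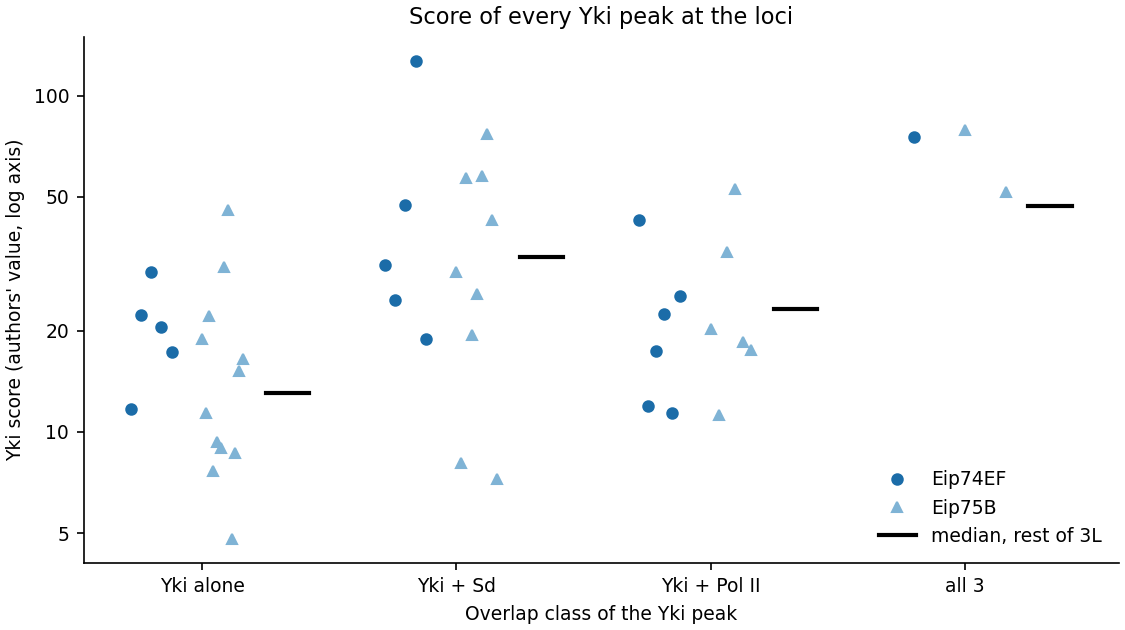
Score of each Yki peak at Eip74EF (circles) and Eip75B (triangles) by overlap class (x axis), on a log axis, with the median of each class on the rest of 3L as a bar. Peaks with Sd reach 127 at Eip74EF and 79.3 at Eip75B, and peaks with neither partner stay at or below 45.8.

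Seen from the other lists, all 18 Sd peaks at the loci overlapped Yki (exact interval 81.5 to 100%), as did 97.5% of 527 on the rest of 3L. Pol II overlapped 3 of the 18, or 16.7% (3.58 to 41.4), against 34.0%. Of the 22 Pol II peaks, 59.1% (36.4 to 79.3) overlapped Yki, against 66.3%, and 13.6% (2.91 to 34.9) overlapped Sd, against 9.57%.

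Shared Yki and Sd sites at the loci lay far from Pol II peaks. Of the 17 Yki peaks with Sd, 13 were more than 5 kb from the nearest Pol II peak, or 76.5%, against 35.2% of 486 on the rest of 3L. The farthest was 19.9 kb away, at Eip74EF. Of the 29 Yki peaks without Sd, 6 were that far, or 20.7%, against 23.4% of 1897. Neighbouring peaks in 1 interval share their distance to Pol II, so these are few independent sites.

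These sites filled long stretches with no Pol II peak, which were singled out after the map was seen. At Eip74EF a stretch of 42.2 kb, from 17569990 to 17612184, held 7 Yki peaks, 4 of them with Sd. At Eip75B a stretch of 26.2 kb, from 17992765 to 18018982, held 9 Yki and 7 Sd peaks, and the next, 35.4 kb from 18019234 to 18054645, held 4 Yki and 3 Sd peaks. Together they made up 41.5% of the windows and held 14 of the 18 Sd peaks, or 77.8%, and 43.5% of the Yki peaks. On the rest of 3L such stretches made up 70.8% of the length and held 49.3% of the Sd and 34.4% of the Yki peaks. A further stretch of 48.9 kb, from 17905687 to 17954556, crossed the start of the Eip75B window and was counted on neither side. It held 1 Yki peak, outside the window, and 0 Sd peaks. Counting its part inside the window would raise the 41.5% and add no Yki or Sd peak.

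The rest of 3L had 308 stretches of at least 20 kb without Pol II, with a median of 0.41 Yki peaks per 10 kb and 177 without any Sd peak. The first Eip75B stretch had 3.43 Yki and 2.67 Sd peaks per 10 kb, and 0.649% and 0.325% of the other stretches had as many. Its 9 Yki and 7 Sd peaks are those of the 12.8 kb group described above, so these shares are no separate evidence. The Eip74EF stretch had 1.66 and 0.95, matched by 7.14% and 1.95%. The second Eip75B stretch had 1.13 and 0.85, matched by 15.3% and 4.22%. Whether the stretches are introns was not tested, since no dm3 annotation was used.

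**Figure D5:**
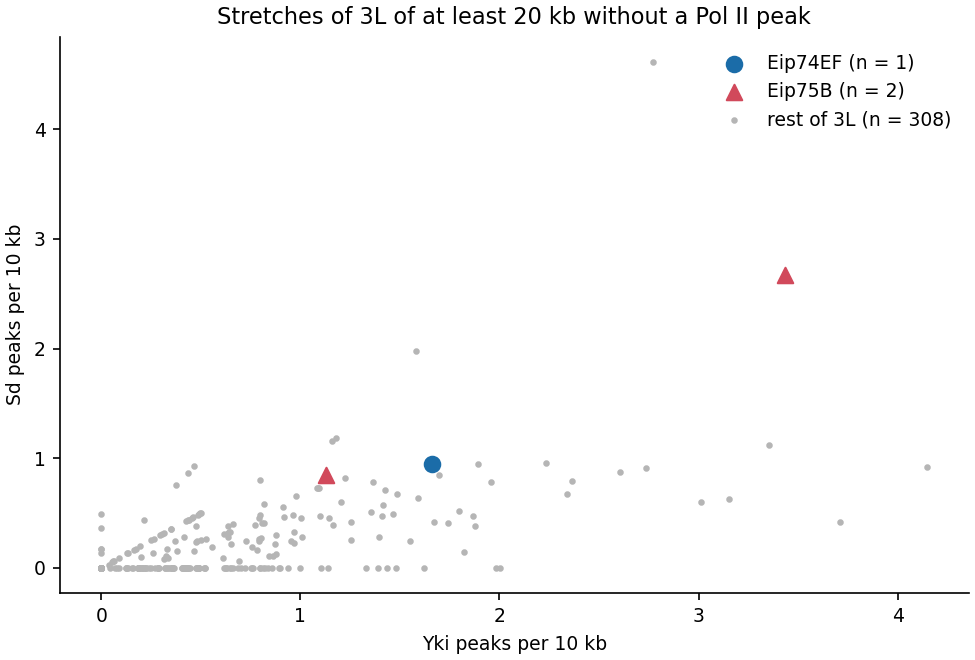
Yki peaks per 10 kb (x axis) and Sd peaks per 10 kb (y axis) in each stretch of 3L of at least 20 kb without a Pol II peak, with 1 stretch at Eip74EF, 2 at Eip75B and 308 on the rest of 3L. A stretch that crosses the start of the Eip75B window is not drawn. The Eip75B stretch with 3.43 Yki and 2.67 Sd peaks per 10 kb stands apart from nearly all others, and holds the same peaks as the 12.8 kb group described above.

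Spacing followed the same grouping. Centres of neighbouring Yki peaks were a median of 2.33 kb apart at Eip75B (0.515 to 20.2 kb) and 4.31 kb at Eip74EF (0.565 to 22.7 kb), against 4.33 kb on the rest of 3L. Neighbouring Sd peaks were a median of 2.39 kb apart at Eip75B and 6.74 kb at Eip74EF, against 21.8 kb. Neighbouring Pol II peaks were a median of 4.60 and 4.81 kb apart at these loci, against 3.34 kb. Inside the windows, Eip74EF thus had Yki spacing like the arm's and closer Sd spacing, and Eip75B closer spacing of both. The Sd medians come from 11 gaps at Eip75B and 5 at Eip74EF. Only gaps inside a window count at the loci, so long gaps are cut off there, while Sd gaps on the rest of 3L reach 508 kb. Closer Sd spacing is therefore in large part the higher Sd density stated again.

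Yki and Pol II peaks at Eip74EF had larger median widths than those of the arm. Median Yki width was 517 bp at Eip74EF (95% interval of the median 490 to 717 bp) and 403 bp at Eip75B, against 404 bp on the rest of 3L. Sd medians were 317 and 274 bp, against 274 bp. Pol II peaks had a median of 914 bp at Eip74EF (95% interval 465 to 1558 bp, peaks from 377 to 4216 bp) and 403 bp at Eip75B, against 422 bp.

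Peaks nearest the window limits show what the limits leave out. At the end of Eip75B the last Yki peak inside, 3.16 kb from the limit, scored 16.5, and the first Yki and Pol II peaks outside, 1.18 and 1.19 kb from it, scored 55.3 and 42.9. At the end of Eip74EF the last Yki peak inside, 1.64 kb from the limit, scored 25.3, and the first outside, 6.17 kb from it, scored 21.8. The nearest Sd peak outside either window was 20.9 kb away. The Sd peaks on both sides of the limits were weak, apart from the 8.77 peak at the start of Eip75B.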

How the data were processed

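The authors deposited 1 peak list for each of 3 immunoprecipitations. Per the submitters' processing notes, the authors used build dm3 with MACS2, Bowtie and CASAVA 1.8.2. Nothing used here states the parameters, control library or read filters. Each list gives a position and 1 score per peak, deposited by the authors with no unit. The lowest Yki score was 3.01, the lowest Sd score 2.00 and the lowest Pol II score 3.01, so the Sd list may have a looser limit; 2432 of 2557 Sd peaks scored at least 3. Read depth is unknown, and the number of peaks called depends on it.

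Positions are printed 1-based. Peaks overlapped when they shared at least 1 bp. The rest of 3L runs to the last peak end on the arm and leaves out both windows. Shares carry exact Clopper-Pearson 95% intervals, densities exact Poisson ones. Peaks named 1 by 1 are all Sd peaks, the 8 highest Yki and 5 highest Pol II peaks of each locus and any alone in their class; others were named after their values were seen. Members, windows and lists were chosen with earlier results of these data known. Planned motif counts in promoters of 20 ecdysone genes were not run, since no sequence was used. Functions were tested on simulated peaks. Python 3.11.15, numpy 2.4.6, scipy 1.17.1 and matplotlib 3.10.9 were used.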

Additional observations from a re-analysis of the deposited data

How the results depend on the processing

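Stability was judged against the 95% interval of each value, which is wide with so few peaks. For 44 results, 153 alternative values stayed inside and 15 did not. When each list was cut to its upper 50% by score, median Yki spacing at Eip74EF was 6554 bp and Sd spacing 20220 bp, from 2 peaks. At Eip75B the same choice left 13 Yki, 7 Sd and 7 Pol II peaks. Of the Yki peaks, 7.69% lay on Pol II (also 7.69% with Pol II only), against 50.3% on the rest of 3L, and 0% had both partners. Of the Sd peaks there, 0% lay on Pol II, against 23.3%. Of the Pol II peaks, 14.3% lay on Yki, against 61.8%, and 0% on Sd, against 6.41%. The median Yki percentile was 86.7. Yki peaks with Sd only were 10.0% at Eip74EF. With the central 200 bp of each peak, Eip74EF had 17.6% of Yki peaks on Pol II, against 28.2% on the rest of 3L, 0% of Sd peaks on Pol II, against 17.8%, 0% of Yki peaks with both partners and 0% of Pol II peaks on Sd. Windows 10 kb shorter gave 100% of Pol II peaks on Yki at Eip74EF, a use chosen after seeing the data. Why the shares changed under these choices was not tested. Yki and Sd density ratios stayed above 1 under each alternative, from 1.60 to 2.20 for Yki and from 1.77 to 4.26 for Sd, but 5 of their 95% intervals reached below 1. With the upper 50% their lower limits were 0.987 (Yki at Eip74EF), 0.9497 (Yki at Eip75B) and 0.214 (Sd at Eip74EF); for Sd at Eip74EF they were 0.787 with Sd scores of at least 3 and 0.722 with windows 20 kb longer. With runs of 10 and 25 kb, 1.22 and 1.47% of other Yki peaks began a run as dense as that of Eip75B, against 0.504% with 15 kb. These lengths were also chosen after seeing the data, as were stretches of at least 10 and 30 kb. With those, 1.403 and 0% of other stretches without Pol II were as dense in Yki as the first of Eip75B (0.649% as reported). That stretch, at 26.2 kb, is itself below the 30 kb limit. The 0% thus compares it with longer stretches only and does not show that it stands out. No paired analysis was possible because no antibody had a replicate library. A peak that was not called is not a site shown to be free.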
